A study of Mus musculus with 9 samples.

Results

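The homeobox and T-box genes that carry positional identity were followed across 3 populations of fat progenitors. They were chosen by symbol alone, as the genes of the mouse families Hox, Tbx, Meox, Prrx, sine oculis homeobox, Pitx, En, Msx, Dlx, Alx, Irx, Barx, Lhx, Pbx and Meis. The rule matched 102 annotated symbols, and 73 of them were among the 20655 genes of the deposited tables. The other 29, such as Hoxa11, Hoxa13, Hoxd13, Barx1 and Six3, were not analysed here. By family, the 73 members were 30 HOX genes, 11 TALE homeobox genes (Pbx, Meis and Irx), 9 T-box genes, 11 limb and somite mesenchyme homeobox genes (Meox, Prrx, Alx, Msx and Dlx) and 12 genes of the sine oculis homeobox, Pitx, En and Lhx families.

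Cells positive for DPP4, ICAM1 or CD142 were sorted by flow cytometry from digested inguinal and axillary white adipose tissue of wild-type C57BL/6 mice, 12 days old, with males and females mixed. The sort used a peptidase (DPP4), a receptor for leukocyte integrins (ICAM1) and tissue factor (CD142), all on the cell surface. For each population 3 libraries of messenger RNA were sequenced, 9 in all, and the series title places the comparison in the question of how mesenchymal progenitors of fat are ordered. Libraries pool both sexes and 2 depots that form beside the fore and hind limbs, and the labels give neither the animals per library nor whether libraries share animals, so the spread that the tests use may be technical.

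HOX genes lie in 4 clusters, and their order along each cluster follows the order in which they are switched on from the head to the tail of the embryo. Fibroblasts and fat progenitors of the adult keep much of this code, which differs between depots. Pbx and Meis proteins bind DNA beside HOX proteins, while T-box, Meox, Prrx, Msx and Irx factors pattern limb, somite and body wall mesenchyme.

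The values analysed were the authors' deposited mean normalised count over the libraries and, for each pair of populations, the log2 fold change with its standard error (SE) and the adjusted p of a Wald test. Values per library were not used here. The level of a gene in each population was fitted from its mean and its fold changes, and has no error of its own. A difference passed the test at an adjusted p below 0.05, and every adjusted p comes from that deposited Wald test with Benjamini-Hochberg adjustment over all genes tested. In sorted cells measured in bulk, fewer cells that express a gene and less of its RNA per cell cannot be told apart.

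The genes of the set were mostly of low to moderate abundance. Their summed mean was 7582 of 9024647 normalised counts, or 0.084% of the counts in genes, and Prrx1 alone held 27.1% of that sum. The median member had a mean of 31.5 normalised counts against 46.6 over all genes, 29 members had a mean of at least 50, and 22 were below 10. Scaled to exon length, Tbx15, Prrx1 and Meox2 stood apart from the rest, with 188, 186 and 163 mean normalised counts per kb of exon. Irx1 followed at 75.1 counts per kb. The lowest was Lhx9, a LIM homeobox gene, at 0.143 counts per kb.

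**Figure D1:**
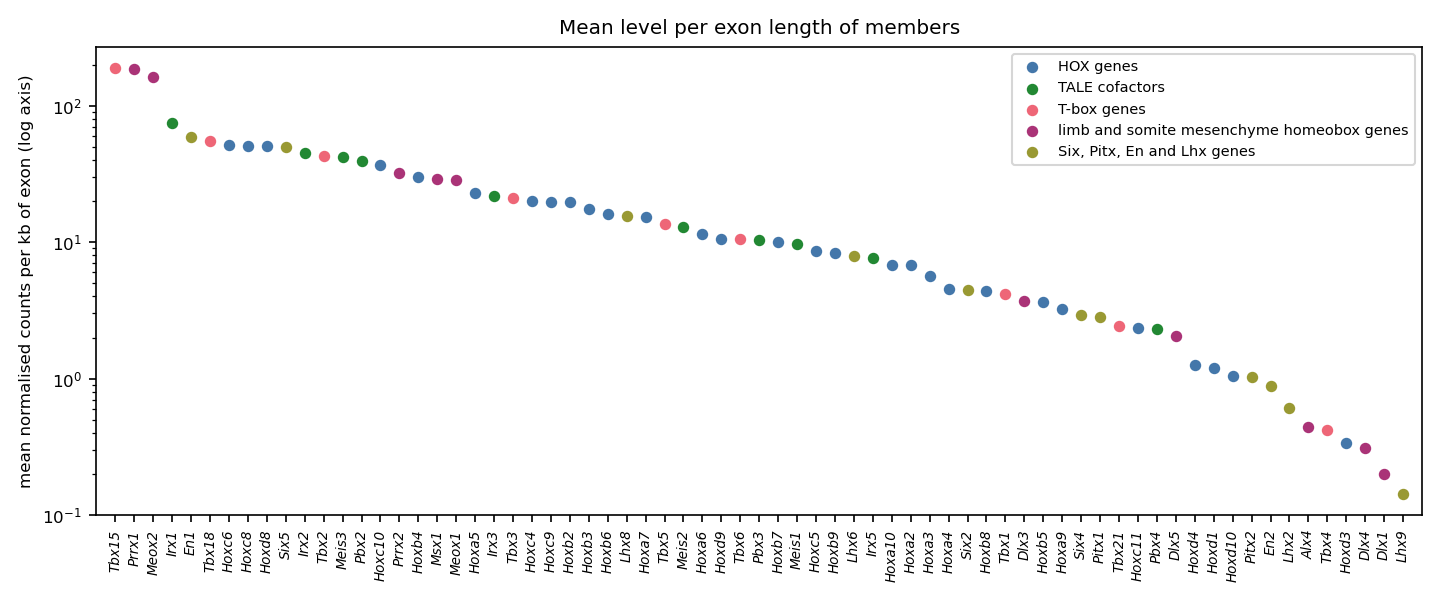
Mean normalised counts per kb of annotated exon for 69 members (log axis), ordered from high to low and coloured by family. TALE homeobox genes are labelled TALE cofactors. Tbx15, Prrx1 and Meox2 lie between 163 and 188 counts per kb and the next gene, Irx1, at 75.1.

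The 3 marker genes of the set moved one way, but the set as a whole did not. Tbx2, Meox1 and Meox2 were each higher in ICAM1+ and in CD142+ than in DPP4+ cells. Over all members, more were lower than higher in those comparisons. In ICAM1+ against DPP4+ cells, 6 of 66 members tested were higher and 12 were lower, where 12.4% and 12.0% of all genes tested were. In CD142+ against DPP4+ cells, 6 of 65 were higher, with 10.1% of all genes, and 13 were lower, with 8.91% of all genes. ICAM1+ and CD142+ cells differed in fewer members, with 3 of 59 higher in ICAM1+ (3.77% of all genes) and 4 lower (5.28% of all genes). The median log2 fold change of the members tested was -0.06, -0.05 and -0.06 in these comparisons, and that of all genes tested was 0.02, -0.01 and -0.00.

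In all, 24 members passed in at least 1 comparison and 49 in none. For 7 members the adjusted p was empty in every comparison (Dlx1, Dlx4, Hoxd1, Hoxd3, Hoxd10, Lhx9 and Tbx4), and 59 had one in all 3. Only Tbx2, Meox2 and Irx1 passed in all 3 comparisons, so these are the members whose full order of populations is given by the tests. No member passed in opposite directions in ICAM1+ and in CD142+ cells against DPP4+ cells, 2 comparisons that share the DPP4+ libraries. For the counts of members that passed in any, in all, in none or in opposite directions, no share of all genes was computed. They are therefore not set against other genes. Higher in DPP4+ than in both other populations were 8 of 65 members (7.13% of all genes tested in both) and lower than in both were 5 (7.34% of all genes). For CD142+ cells 1 of 59 was higher (2.13% of all genes) and 2 were lower (0.568% of all genes) than in both others, and for ICAM1+ cells 1 was higher (2.75% of all genes) and 3 were lower (2.79% of all genes).

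**Figure D2:**
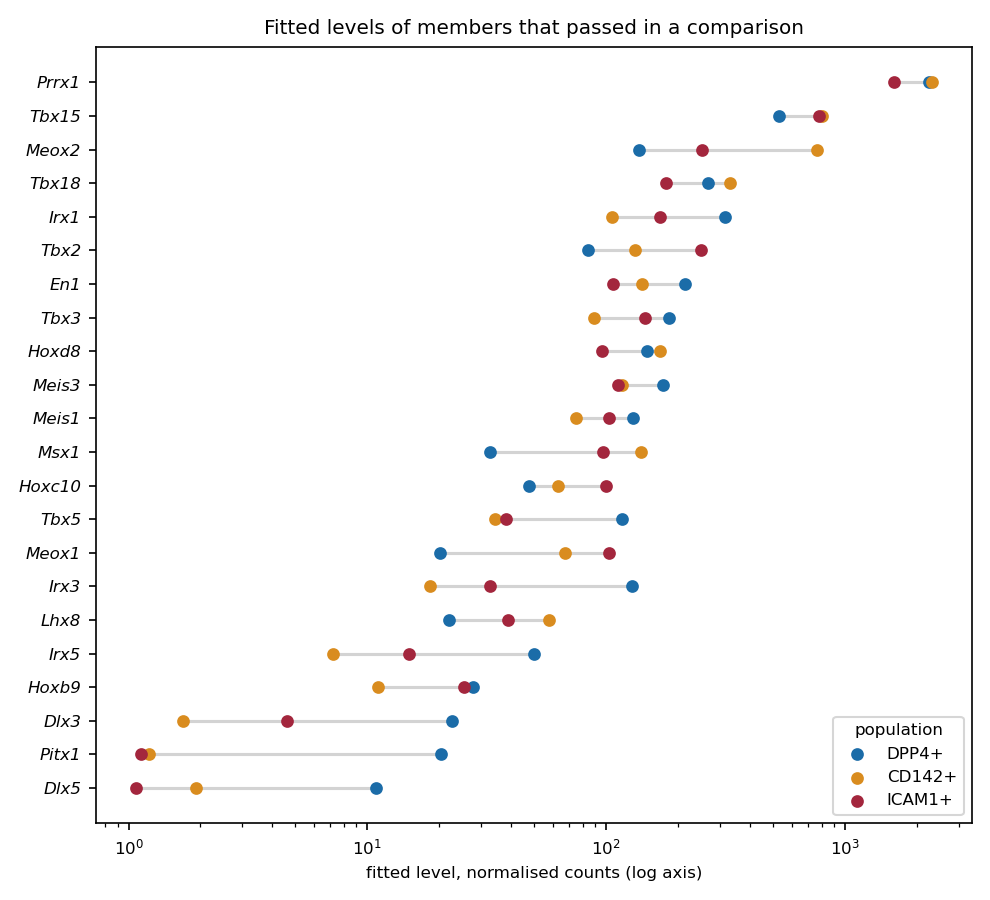
Fitted level in normalised counts (log axis) of 22 members that passed in at least 1 comparison, with 1 point for each population and no error, ordered by mean. Meox1, Meox2, Msx1 and Tbx2 have their lowest point in DPP4+ cells, while Irx3, Irx5, Tbx5, Dlx3, Dlx5 and Pitx1 have their highest point there.

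Among the limb and somite mesenchyme genes, Meox2 (mesenchyme homeobox 2, a regulator of somite and limb muscle patterning) was the clearest gene of CD142+ cells. It lies on chromosome 12 from 37108540 to 37179534 (ENSMUSG00000036144). Its fitted level was 137, 252 and 762 normalised counts in DPP4+, ICAM1+ and CD142+ cells. The log2 fold change was 2.47 ± 0.22 (SE) in CD142+ against DPP4+ cells (adjusted p = 6.55e-27), a 5.55-fold difference, and 0.88 ± 0.23 in ICAM1+ against DPP4+ cells (adjusted p = 0.000854). ICAM1+ cells were also below CD142+ cells, at -1.59 ± 0.22 (adjusted p = 2.48e-11). Meox2 was thus the 1 member higher in CD142+ than in both other populations.

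Meox1, its paralogue with a role in sclerotome formation, had the other populations in the reverse order. Its fitted level was 20.2, 67.0 and 103 normalised counts in DPP4+, CD142+ and ICAM1+ cells. Both were above DPP4+ cells, by a log2 fold change of 1.73 ± 0.35 in CD142+ (adjusted p = 1.05e-05) and 2.34 ± 0.35 in ICAM1+ cells (adjusted p = 2.79e-10), the latter a 5.08-fold difference. ICAM1+ and CD142+ cells were not separated for Meox1 (0.61 ± 0.30, adjusted p = 0.254, 95% interval 0.02 to 1.21 before adjustment). Per kb of exon, Meox2 ran at 323 fitted counts and Meox1 at 30.1 in CD142+ cells.

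Msx1 (msh homeobox 1), a target of bone morphogenetic protein signalling in limb mesenchyme, had its lowest level in the same population. The fitted levels were 32.7, 97.1 and 140 normalised counts in DPP4+, ICAM1+ and CD142+ cells. It was 2.97-fold higher in ICAM1+ (log2 fold change 1.57 ± 0.29, adjusted p = 1.28e-06) and 4.27-fold higher in CD142+ than in DPP4+ cells (2.10 ± 0.29, adjusted p = 1.03e-11). The difference between ICAM1+ and CD142+ cells, -0.53 ± 0.26, did not pass (adjusted p = 0.252).

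Prrx1 (paired related homeobox 1), a general gene of limb bud and body wall mesenchyme, was the most abundant member by mean count. Its fitted levels were 2250, 2324 and 1601 normalised counts in DPP4+, CD142+ and ICAM1+ cells. It was lower in ICAM1+ cells than in DPP4+ (-0.49 ± 0.11, adjusted p = 0.000108) and CD142+ cells (-0.54 ± 0.11, adjusted p = 5.34e-05). DPP4+ and CD142+ cells were not separated, with a log2 fold change of 0.05 ± 0.11 and a 95% interval from -0.17 to 0.26. The paralogue Prrx2 passed in no comparison, with fitted levels from 49.3 to 80 normalised counts.

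The distal-less and aristaless members were rare, and those that passed were lower than in DPP4+ cells. Dlx3, known for its part in epidermis, hair and bone, had fitted levels of 22.7, 1.69 and 4.63 normalised counts in DPP4+, CD142+ and ICAM1+ cells and was lower in CD142+ (log2 fold change -3.75 ± 0.95, adjusted p = 0.000799) and ICAM1+ cells (-2.29 ± 0.84, adjusted p = 0.0279). Dlx5 passed in ICAM1+ cells (-3.35 ± 1.32, adjusted p = 0.0468). Both genes have means below 10 normalised counts and were named after their values were seen.

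To show the sequences in front of genes that moved together, the 250 bases before the RefSeq start site (build GRCm38.p6) are given for 2 members higher in both other populations than in DPP4+ cells, Meox2 and Msx1, and for 2 that were lower in ICAM1+ than in both others, Hoxd8 and Tbx18. In these windows and their complement, 6 motifs were searched, with N for any base: a T-box site GGTGTGA, a homeodomain site TAATTA, a MEIS site TGACAG, a PBX-HOX site TGATTNAT, a CCAAT box CCAAT and a TATA box TATAAA. Each is written 5′ to 3′ on the strand of its gene. Capitals mark the matches, which did not overlap in these 4 windows, and a match on the other strand is shown as its complement reads.
Meox2, chr12:37108290-37108539, plus strand: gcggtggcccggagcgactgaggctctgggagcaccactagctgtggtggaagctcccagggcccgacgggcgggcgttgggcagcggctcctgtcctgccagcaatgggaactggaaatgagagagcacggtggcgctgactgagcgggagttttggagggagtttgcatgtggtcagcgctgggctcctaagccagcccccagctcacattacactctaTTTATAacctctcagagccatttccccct
Msx1, chr5:37824586-37824835, minus strand: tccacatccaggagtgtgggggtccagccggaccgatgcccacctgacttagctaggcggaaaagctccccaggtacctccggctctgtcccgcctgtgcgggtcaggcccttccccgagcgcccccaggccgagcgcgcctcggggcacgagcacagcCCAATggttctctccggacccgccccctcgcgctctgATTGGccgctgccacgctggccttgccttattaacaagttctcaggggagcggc
Hoxd8, chr2:74704365-74704614, plus strand: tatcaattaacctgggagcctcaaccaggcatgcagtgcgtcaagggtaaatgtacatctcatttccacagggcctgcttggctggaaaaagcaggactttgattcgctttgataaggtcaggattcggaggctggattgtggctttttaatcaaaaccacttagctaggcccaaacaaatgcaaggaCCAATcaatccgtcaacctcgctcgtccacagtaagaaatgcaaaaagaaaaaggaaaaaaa
Tbx18, chr9:87731261-87731510, minus strand: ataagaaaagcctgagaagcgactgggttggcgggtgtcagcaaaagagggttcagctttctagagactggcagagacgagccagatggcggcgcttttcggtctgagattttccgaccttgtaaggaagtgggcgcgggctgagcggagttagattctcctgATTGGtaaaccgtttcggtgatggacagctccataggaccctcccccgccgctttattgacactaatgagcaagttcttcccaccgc
Meox2 held the TATA letters on the other strand only, in a match that begins 29 bases before the start site. On either strand, 12.2% of 20595 promoters held these letters somewhere in the window. Msx1 held CCAAT boxes starting 91 and 54 bases before the start, Hoxd8 held one at 62 and Tbx18 one at 87, against 35.1% of all promoters with at least 1. None of the 4 windows held the letters searched for T-box (3.24% of all promoters), homeodomain (4.61%), MEIS (15.7%) or PBX-HOX sites (2.85%). Of the 73 members, 41 were matched to an entry, and among these 1 window held the T-box, 2 the homeodomain, 6 the MEIS, 2 the PBX-HOX, 21 the CCAAT and 6 the TATA letters. Not all of these windows are plain upstream sequence. Those of Hoxc4, Irx3 and Prrx2 lie wholly in exons of their own gene, and the Hoxc4 start site is 15461 bases from the annotated gene start. For 37 of the 41, the sequence after the start site was found in a transcript of the gene.

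The T-box genes passed in both directions. Of 8 tested, 2 were higher and 2 lower in ICAM1+ than in DPP4+ cells, where 12.4% and 12.0% of all genes were, and the same numbers held in CD142+ cells (10.1% and 8.91% of all genes), with Tbx18 among the lower genes in the former and Tbx3 in the latter. Tbx2, a repressor whose targets include inhibitors of the cell cycle, had a separate level in each population. The fitted level was 84.2, 132 and 251 normalised counts in DPP4+, CD142+ and ICAM1+ cells. Against DPP4+ cells the log2 fold change was 0.65 ± 0.22 in CD142+ (adjusted p = 0.0158) and 1.58 ± 0.21 in ICAM1+ cells (adjusted p = 2.1e-12), and ICAM1+ cells were 1.9-fold above CD142+ cells (0.92 ± 0.20, adjusted p = 0.000144). Tbx2 (ENSMUSG00000000093) lies on chromosome 11 from 85832551 to 85841948. It was the 1 member higher in ICAM1+ than in both other populations.

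Tbx15 (T-box 15), a gene of trunk and limb mesenchyme that is known to vary between fat depots, was the most abundant T-box gene. Its fitted levels were 528, 800 and 779 normalised counts in DPP4+, CD142+ and ICAM1+ cells. Both exceeded DPP4+ cells, by 0.60 ± 0.13 (adjusted p = 3.57e-05) and 0.56 ± 0.13 (adjusted p = 0.000121). The 95% interval between ICAM1+ and CD142+ cells ran from -0.29 to 0.21 on the log2 scale.

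Tbx3 and Tbx5 lie 148 kb apart on chromosome 5, and both were lower in CD142+ than in DPP4+ cells. Tbx5 specifies the forelimb. Its fitted levels were 117, 34.2 and 38.2 normalised counts in DPP4+, CD142+ and ICAM1+ cells. It was lower than in DPP4+ cells in CD142+ (-1.78 ± 0.35, adjusted p = 5.19e-06) and in ICAM1+ cells (-1.62 ± 0.35, adjusted p = 4.19e-05), by 3.43-fold and 3.07-fold. Tbx3, the paralogue of Tbx2, had fitted levels of 183, 89.2 and 145 normalised counts in DPP4+, CD142+ and ICAM1+ cells. It was lower in CD142+ cells than in DPP4+ cells (-1.04 ± 0.21, adjusted p = 1.65e-05) and than in ICAM1+ cells, which were higher by 0.70 ± 0.22 (adjusted p = 0.0181). Tbx3 in ICAM1+ against DPP4+ cells did not pass (-0.34 ± 0.21, adjusted p = 0.257). Tbx4, the hindlimb counterpart of Tbx5 and a neighbour of Tbx2 at 44.5 kb, had a mean of 1.43 normalised counts and no adjusted p.

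Tbx18, a gene of somite, limb and mural cell lineages, was lowest in ICAM1+ cells. The fitted levels were 267, 330 and 179 normalised counts in DPP4+, CD142+ and ICAM1+ cells. It was below DPP4+ cells by a log2 fold change of -0.58 ± 0.19 (adjusted p = 0.0153) and below CD142+ cells by -0.88 ± 0.19 (adjusted p = 0.000152), while CD142+ and DPP4+ cells did not pass (0.30 ± 0.19, adjusted p = 0.312). Exons on the other strand cover 20.6% of its exon bases. Tbx1, Tbx6 and Tbx21 passed in no comparison, Tbx1 with 1.65 ± 0.58 in ICAM1+ against CD142+ cells (adjusted p = 0.0504).

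**Figure D3:**
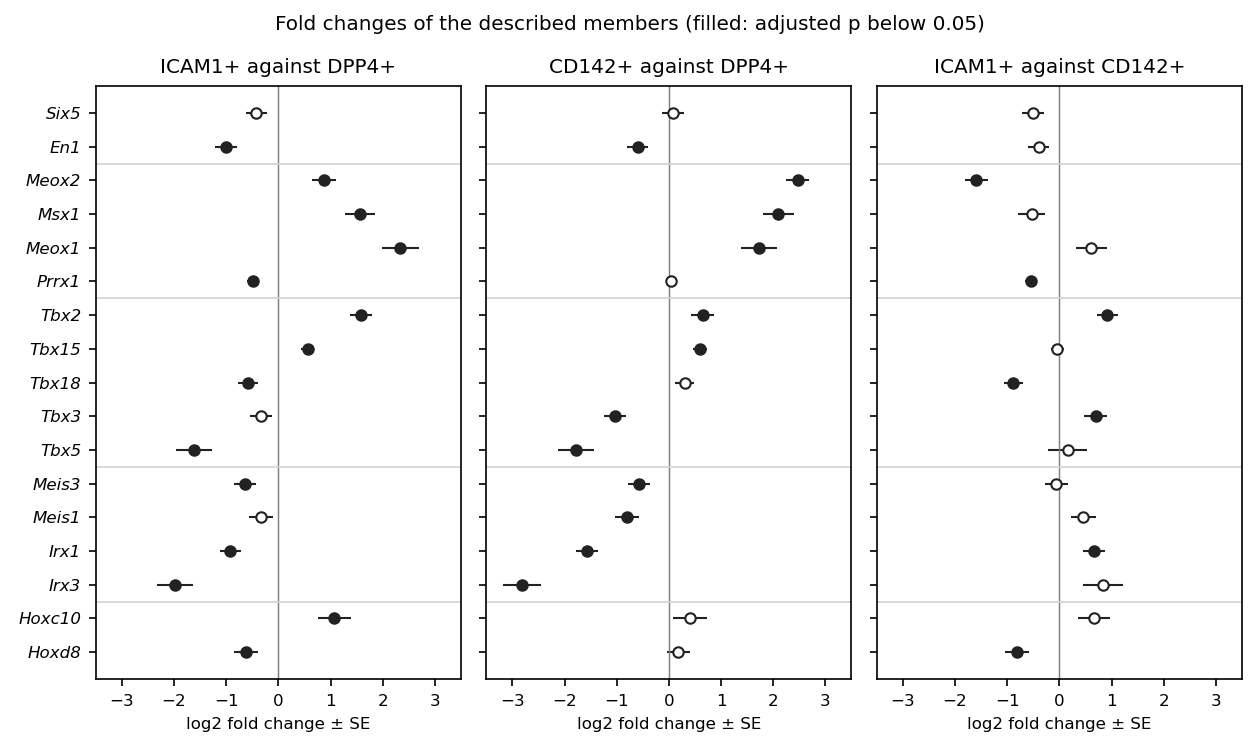
Log2 fold changes with their SE for the 17 members described in full, in the 3 comparisons of the deposited tables, with lines between families and filled points where the adjusted p is below 0.05. In CD142+ against DPP4+ cells the points run from -2.82 for Irx3 to 2.47 for Meox2.

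The TALE homeobox genes that passed against DPP4+ cells were lower. None of 11 was higher and 4 were lower in ICAM1+ cells (12.4% and 12.0% of all genes), and none was higher and 5 were lower in CD142+ cells (10.1% and 8.91% of all genes). The median log2 fold changes of the family were -0.43 and -0.58, beside 0.02 and -0.01 over all genes tested. The Iroquois genes accounted for 3 of the genes lower in both. Irx3, which takes part in early limb patterning and is linked to the choice between white and thermogenic fat, lies on chromosome 8 from 91798525 to 91802067 and had fitted levels of 129, 18.3 and 32.7 normalised counts in DPP4+, CD142+ and ICAM1+ cells. It was lower by 7.05-fold in CD142+ (log2 fold change -2.82 ± 0.36, adjusted p = 1.06e-13) and by 3.94-fold in ICAM1+ cells (-1.98 ± 0.34, adjusted p = 1.12e-07). Between ICAM1+ and CD142+ cells the difference of 0.84 ± 0.38 did not pass (adjusted p = 0.182).

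Irx5, 556 kb from Irx3 on chromosome 8, was also lower in CD142+ (-2.80 ± 0.52, adjusted p = 1.35e-06) and ICAM1+ cells (-1.73 ± 0.49, adjusted p = 0.00247), at fitted levels of 49.8, 7.16 and 15 normalised counts in DPP4+, CD142+ and ICAM1+ cells. With a mean of 24 it lies under the minimum for full description and was named after its values were seen. Irx1, in the other Iroquois cluster on chromosome 13, was the most abundant of the family by mean. Its fitted levels were 316, 168 and 106 normalised counts in DPP4+, ICAM1+ and CD142+ cells. All of its differences passed, with -0.92 ± 0.20 in ICAM1+ (adjusted p = 6.16e-05) and -1.57 ± 0.21 in CD142+ against DPP4+ cells (adjusted p = 8.01e-13) and 0.66 ± 0.21 in ICAM1+ against CD142+ cells (adjusted p = 0.0271). Its neighbour Irx2, 665 kb away, passed in no comparison, with fitted levels from 122 to 163 normalised counts.

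Among the partners of HOX proteins, Pbx2 had fitted levels of 120, 151 and 155 normalised counts in DPP4+, CD142+ and ICAM1+ cells and passed in no comparison. Meis2 passed in none either, with fitted levels of 144, 136 and 186 normalised counts in the same order. Meis3 was lower than in DPP4+ cells in ICAM1+ (-0.64 ± 0.22, adjusted p = 0.0163) and CD142+ cells (-0.58 ± 0.21, adjusted p = 0.0381), with fitted levels of 174, 117 and 112 normalised counts in DPP4+, CD142+ and ICAM1+ cells. Meis1 passed in CD142+ against DPP4+ cells, where it was lower (-0.80 ± 0.23, adjusted p = 0.00506), and its value in ICAM1+ against CD142+ cells was 0.46 ± 0.24 (adjusted p = 0.285).

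Of 4 other TALE genes tested, 2 were higher in ICAM1+ and in CD142+ than in DPP4+ cells, where 12.4% and 10.1% of all genes were, and none was lower. These were Pknox2, with log2 fold changes of 1.82 ± 0.23 (adjusted p = 1.38e-13) and 1.86 ± 0.23 (adjusted p = 2.72e-14), and Tgif2, a repressor of transforming growth factor beta targets, with 0.98 ± 0.17 (adjusted p = 1.33e-07) and 0.91 ± 0.17 (adjusted p = 1.22e-06). Neither passed between ICAM1+ and CD142+ cells.

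Of 27 HOX genes tested against DPP4+ cells, 1 was higher and 1 lower in ICAM1+ cells, where 12.4% and 12.0% of all genes were. In CD142+ cells none was higher and 1 was lower, where 10.1% and 8.91% of all genes were. Between ICAM1+ and CD142+ cells none of 25 was higher and 1 was lower in ICAM1+ (3.77% and 5.28% of all genes). The HOX genes were also rarer than most, with a median mean of 22.4 normalised counts against 46.6 over all genes, and the part of this in the number that passed was not tested. The fitted levels of the 30 HOX genes summed to 408, 493 and 430 counts per kb of exon in DPP4+, CD142+ and ICAM1+ cells. By cluster, the Hoxc genes gave the largest summed level, from 164 to 210 counts per kb, followed by Hoxb (107 to 112), Hoxa (64.7 to 95.3) and Hoxd (48.7 to 75.4). These lengths include exon bases shared with other genes, such as 52.9% of Hoxb3, 25.4% of Hoxa3 and 62.3% of Hoxd3. Among Hoxc genes the shared part was smaller, with 8.7% of Hoxc10. The effect of shared bases on this order was not tested. The genes with the highest mean per kb were Hoxc6 at 51.2, Hoxc8 at 50.4 and Hoxd8 at 50.3 counts per kb, all central in their clusters. Paralogues 5 to 8 held from 220 to 283 counts per kb, paralogues 1 to 4 from 98.6 to 129 and paralogues 9 to 13 from 80.3 to 105.

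Hoxc10, a posterior gene that is known to mark subcutaneous fat, was the HOX gene higher in ICAM1+ cells. Its fitted levels were 47.4, 63.2 and 99.7 normalised counts in DPP4+, CD142+ and ICAM1+ cells. The log2 fold change was 1.07 ± 0.32 in ICAM1+ against DPP4+ cells (adjusted p = 0.00544), and it was 0.41 ± 0.33 in CD142+ against DPP4+ and 0.66 ± 0.31 in ICAM1+ against CD142+ cells, where it did not pass (adjusted p = 0.472 and 0.222). Part of the annotated Hoxc5 gene overlaps Hoxc10 on the same strand, over 8.7% of the Hoxc10 exon bases.

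Hoxd8 was lower in ICAM1+ cells than in both other populations. The fitted levels were 149, 169 and 96.1 normalised counts in DPP4+, CD142+ and ICAM1+ cells, a log2 fold change of -0.63 ± 0.23 against DPP4+ (adjusted p = 0.0292) and of -0.81 ± 0.23 against CD142+ cells (adjusted p = 0.00681). The remaining call was Hoxb9, lower in CD142+ than in DPP4+ cells by -1.32 ± 0.50 (adjusted p = 0.0433) at a mean of 21.4 normalised counts, a gene named after its values were seen.

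Along the clusters, a stretch of Hoxa genes singled out after the values were seen lay on one side of zero without passing. Their means ran from 7.17 to 42.9 normalised counts. Hoxa2 to Hoxa6 had log2 fold changes from 0.48 to 0.96 in ICAM1+ and from 0.78 to 1.75 in CD142+ against DPP4+ cells, 2 comparisons with the same DPP4+ libraries. The lowest adjusted p among these was 0.0717, for Hoxa3 in CD142+ cells (1.0 ± 0.41). Hoxa7, the next gene, was at -0.64 ± 0.35 and -0.63 ± 0.34. In CD142+ against DPP4+ cells the median log2 fold change of the HOX genes tested was 0.50 for paralogues 1 to 4, 0.20 for 5 to 8 and -0.21 for 9 to 13, and in ICAM1+ against DPP4+ cells it was 0.65, 0.09 and 0.05. Of 9 genes of paralogues 1 to 4 tested, 7 lay above and 2 below 0 in each of these comparisons, and none passed. Hoxb2 was below 0 in both, at -0.59 ± 0.28 in ICAM1+ and -0.63 ± 0.27 in CD142+ against DPP4+ cells. A trend along the clusters was not tested. Genes of a cluster are neighbours and share overlapping transcripts, and 6 HOX genes have over 20% of their exon bases in exons of another gene (Hoxa3, Hoxa7, Hoxb2, Hoxb3, Hoxd3 and Hoxd4), against 1 of the other members.

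**Figure D4:**
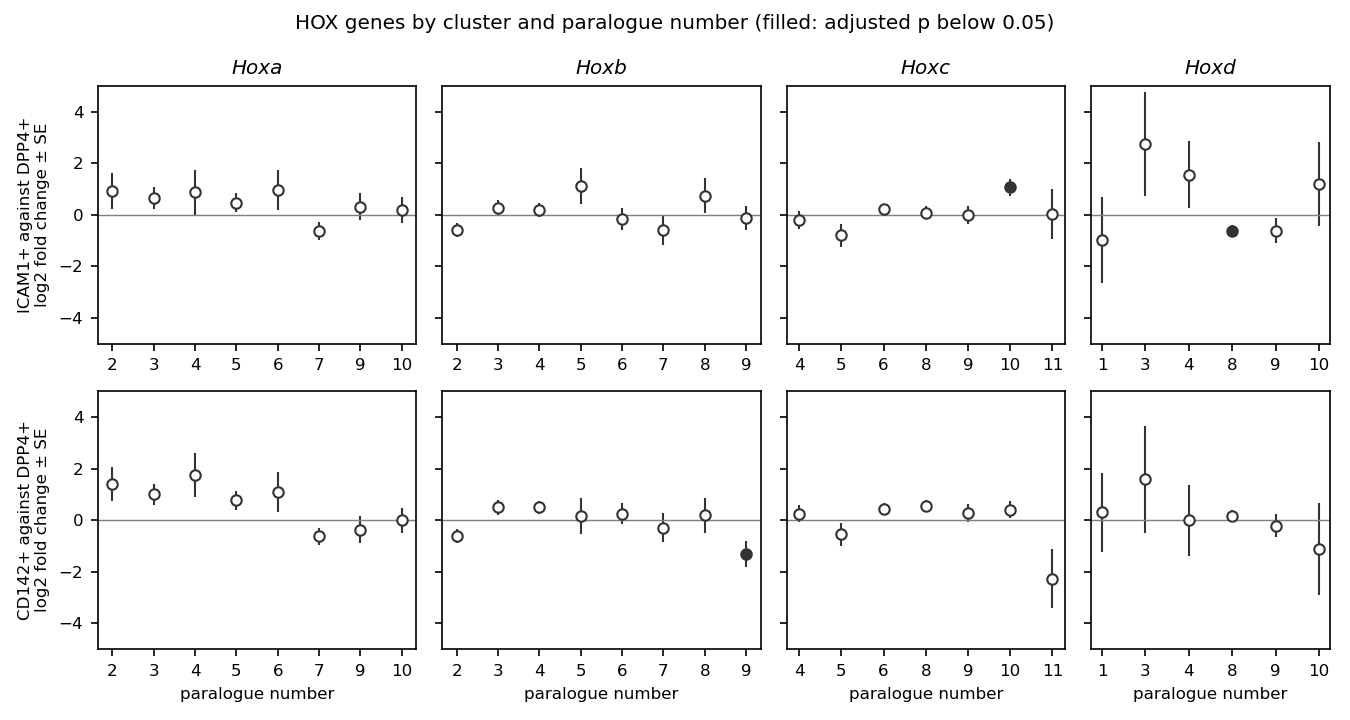
Log2 fold changes with their SE of 29 HOX genes, by cluster (columns) and paralogue number, in ICAM1+ (upper) and CD142+ (lower) against DPP4+ cells, filled where the adjusted p is below 0.05. Hoxa2 to Hoxa6, a stretch singled out after the values were seen, all lie above 0 in both rows, from 0.48 to 1.75, with open points.

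Of 6 noncoding genes of the HOX clusters tested against DPP4+ cells, none passed in ICAM1+ cells and 1 was higher in CD142+ cells, where 10.1% of all genes were. This was Hoxaas2, an antisense gene of the Hoxa cluster (1.55 ± 0.58, adjusted p = 0.0418). It lies over exons of Hoxa3, and without strand information the reads of the shared bases cannot be told apart. Hoxb3os, the most abundant by mean, passed in none and had fitted levels from 108 to 133 normalised counts. Its exons cover part of Hoxb3, 52.9% of whose exon bases lie in exons of the other strand, and of Hoxb2, with 27.3%.

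Few genes of the sine oculis homeobox, Pitx, En and Lhx families passed. In ICAM1+ against DPP4+ cells none of 11 tested was higher and 2 were lower (12.4% and 12.0% of all genes). In CD142+ against DPP4+ cells 1 of 10 was higher and 3 were lower (10.1% and 8.91% of all genes). En1 (engrailed 1), a gene of ventral limb ectoderm and of a lineage of dorsal dermal fibroblasts, had fitted levels of 214, 141 and 107 normalised counts in DPP4+, CD142+ and ICAM1+ cells. It was lower in ICAM1+ (-1.0 ± 0.21, adjusted p = 1.54e-05) and CD142+ cells (-0.60 ± 0.20, adjusted p = 0.0168), and ICAM1+ and CD142+ cells were not separated (-0.40 ± 0.21, adjusted p = 0.299). Six5, the other abundant gene of this group, passed in none, with fitted levels of 161, 171 and 120 normalised counts in DPP4+, CD142+ and ICAM1+ cells.

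Of the rarer genes of this group, Pitx1, which specifies the hindlimb, showed the largest fold differences of any member tested. Its fitted levels were 20.3, 1.22 and 1.13 normalised counts in DPP4+, CD142+ and ICAM1+ cells, with log2 fold changes of -4.05 ± 1.04 (adjusted p = 0.000929) and -4.16 ± 1.11 (adjusted p = 0.0013) against DPP4+ cells. At levels near 1 normalised count the size of such a fold is poorly set, and the 95% intervals ran from -6.1 to -2.01 and from -6.34 to -1.99. Lhx8, a LIM homeobox gene, was higher in CD142+ than in DPP4+ cells (1.39 ± 0.38, adjusted p = 0.00229). Both genes have means below 50 normalised counts and were named after their values were seen. Tbx5 and Pitx1, a forelimb and a hindlimb gene, were both highest in DPP4+ cells by fitted level. Tbx4, another hindlimb gene, had fitted levels of 0.363, 2.3 and 1.62 normalised counts in DPP4+, CD142+ and ICAM1+ cells and was not tested.

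The EYA and DACH cofactors of the sine oculis homeobox proteins were measured for 4 of 6 genes listed. Eya2 was higher than in DPP4+ cells in ICAM1+ (3.03 ± 0.53, adjusted p = 1.36e-07) and CD142+ cells (3.38 ± 0.52, adjusted p = 2.09e-09), while Eya4 was lower in both (-2.18 ± 0.46, adjusted p = 2.74e-05, and -1.59 ± 0.43, adjusted p = 0.00219). Their means were 36.1 and 30.2 normalised counts, and they were named after their values were seen. Eya3 and Dach1 passed in none.

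For some members the standard errors were small enough to bound the difference. The 95% interval lay within 1 log2 unit of 0 in all 3 comparisons for 9 of 73 members, among them Hoxc6, Hoxc9, Irx2, Meis2, Pbx2, Six5, Prrx1 and Tbx15, of which the last 2 passed in some comparison. For the rest a 2-fold difference between some pair of populations was not excluded by the interval, even where the test did not pass.

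Markers of other cell types moved with the populations. Mural markers were higher in ICAM1+ than in DPP4+ cells for 6 of 10 genes and lower for 1, where 12.4% and 12.0% of all genes were. In CD142+ against DPP4+ cells 6 of the 10 were also higher and none was lower (10.1% and 8.91% of all genes), and their fitted levels summed to 3611, 8266 and 12597 normalised counts in DPP4+, CD142+ and ICAM1+ cells. Endothelial markers were higher in ICAM1+ cells for 6 of 10 (2653, 2534 and 3981 normalised counts in DPP4+, CD142+ and ICAM1+ cells) and Schwann cell markers for 6 of 7 (1285, 1096 and 2733). Epithelial markers were rare and higher in ICAM1+ cells for 4 of 6 (25.1, 56.3 and 123), and mesothelial markers were lower there for 1 of 4 tested (139, 72.1 and 40.1). This was the keratin gene Krt19, which alone held 125, 54.6 and 31.5 of the mesothelial sums. Krt19 was also lower in CD142+ than in DPP4+ cells (-1.20 ± 0.31, adjusted p = 0.0012). Immune markers passed in none of 8 in ICAM1+ against DPP4+ cells and skeletal muscle markers were higher for 2 of 6, with summed levels of 232 to 402 and 90.4 to 199 normalised counts. Fitted levels are above 0 for every gene with counts, so they do not show whether a population lacked a marker. The lowest of the epithelial list was Krt14 at 0.409 normalised counts in DPP4+ cells. Against DPP4+ cells, CD142+ cells were higher in 1 of 7 Schwann cell and 1 of 8 immune markers and in none of the endothelial, epithelial, mesothelial and skeletal muscle markers. The stromal markers, with the sort markers Dpp4, Icam1 and F3 among them, summed to 572108, 591531 and 349880 normalised counts in DPP4+, CD142+ and ICAM1+ cells. The collagen gene Col1a1 alone held 508937, 537730 and 307651 of these. The part of the other cell types in the levels of Tbx2, Hoxc10, Meox1, Meox2, Msx1 and the other members was not tested.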

How the data were processed

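RNA of sorted DPP4+, ICAM1+ and CD142+ cells was sequenced in 3 libraries each. The labels describe oligo(dT) selection, random priming and no step that marks strand. The submitters' processing notes name STAR 2.5.2a, R 3.5.1, DESeq2 with no version and the build mm10, and no annotation release. The authors' deposited tables hold 3 pairwise comparisons of 20655 genes and 4 summary rows that name no gene, which were left out here. Ambiguous reads, one of these classes, made up 2.07% of the summed means. The mean is a signal made by the authors, counts divided by size factors and averaged over all libraries. The log2 fold changes and standard errors are the authors' DESeq2 fit, as are the deposited Wald score, p-value and adjusted p-value, the last empty where a gene was filtered out. These are comparison columns of the authors, and they are reported as such because the rule that defines the genes is written on the rows of these deposited tables. The rule uses the gene symbol and none of the comparison values. The depth of each library is unknown.

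Identifiers without version were matched to GENCODE M21 (GRCm38), with the same version for 70 of 73 members. Levels per population were solved from the mean and fold changes, and divided by the union of annotated exons where genes are compared. Intervals are the fold change with its standard error under a normal distribution at 95%. Genes given with full values were the 3 markers and members that passed with a mean of at least 50, with the 2 of highest mean added where a family had fewer than 2. Other members and genes named with values were singled out after these were seen. Some genes are not reported by name here. The members and all lists were chosen with earlier results of these data known. Promoter windows came from RefSeq (GRCm38.p6). Calculations used Python with scipy and pandas, and were tested on simulated data. Alternatives were other adjusted p limits, other gene sets for the adjustment, a minimum fold, a test against a fold, re-centred fold changes and the longest transcript as length.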

Additional observations from a re-analysis of the deposited data

How the results depend on the processing

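Values per library were not used here, so leaving out a library could not be run. No paired analysis was possible because the tables carry no values per library, although the labels number the libraries of each population alike. The labels give no batch. Of the 33 passed comparisons of the 17 members described in full, 25 passed under each of the 6 alternatives that put no condition on the size of the fold where they could be computed, and 4 passed a test against a log2 fold change of 1. The alternatives could not test direction, because all but re-centring kept the deposited log2 fold changes. Re-centring moved all fold changes by the medians -0.07, -0.05 and -0.02 of genes averaging at least 100 counts. These shifts were too small to reverse a call, as the passed value nearest to no change was -0.49 (Prrx1 in ICAM1+ against DPP4+ cells). Re-centring ended the calls of Hoxd8 in ICAM1+ against DPP4+ cells (adjusted p = 0.058) and of Meis3 in CD142+ against DPP4+ cells (adjusted p = 0.0692). Dividing by the longest transcript moved the mean level per kb of 11 of 17 members and put Prrx1 first at 315 counts per kb, with Tbx15 at 197.

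Under the alternatives no share of all genes was computed, so the counts below are not set against other genes. The counts of members changed by more than 1.5 times as follows. At an adjusted p below 0.01, those lower than in DPP4+ cells became 7 in ICAM1+ and 8 in CD142+ cells, those higher in ICAM1+ than in CD142+ cells 1, those higher in DPP4+ than in both others 5, those lower in CD142+ than in both others 0 and those lower in ICAM1+ than in both others 1. With the adjustment over genes averaging at least 100 counts, which leaves 18 members, 3 were higher and 6 lower in ICAM1+ than in DPP4+ cells, 3 were higher and 5 lower in CD142+ than in DPP4+ cells, and 3 were higher and 3 lower in DPP4+ than in both others. With an absolute log2 fold change above 1 also required, 6 were lower in ICAM1+ than in DPP4+ cells, 0 exceeded and 1 was below CD142+ cells in ICAM1+ cells, 5 were higher and 2 lower in DPP4+ than in both others, and 0 were lower in CD142+, 0 higher in ICAM1+ and 0 lower in ICAM1+ than in both others. Tested against a log2 fold change of 1, 1 was higher and 0 lower in ICAM1+ than in DPP4+ cells, 2 were higher and 2 lower in CD142+ than in DPP4+ cells, and 0 remained in each of the other 8 counts.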

Other observations

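Chromatin regulators of HOX clusters were listed as background. Of 26 polycomb genes tested, 5 were higher and 1 lower in ICAM1+ than in DPP4+ cells, where 12.4% and 12.0% of all genes were, with a median log2 fold change of 0.01. They included Ezh2, the main methyltransferase of the repressive complex (0.94 ± 0.22, adjusted p = 0.000251), and Mtf2 (0.80 ± 0.26, adjusted p = 0.0115). In CD142+ against DPP4+ cells, where 10.1% of all genes were higher and 8.91% lower, 2 passed, among them Scmh1, which was lower (-0.44 ± 0.16, adjusted p = 0.0384). Between ICAM1+ and CD142+ cells none of the 26 passed the deposited Wald test. Of 13 trithorax and demethylase genes, 3 were higher in ICAM1+ (12.4% of all genes) and 2 in CD142+ (10.1% of all genes) than in DPP4+ cells and none was lower. Kdm6b, which removes the polycomb mark, was the most abundant of them by mean and was higher in ICAM1+ (0.62 ± 0.11, adjusted p = 1.55e-07) and CD142+ cells (0.33 ± 0.11, adjusted p = 0.0136).

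Limb patterning genes and homeobox genes outside the rule were also listed. Fgf10, the mesenchymal signal of limb outgrowth, had fitted levels of 196, 269 and 498 normalised counts in DPP4+, CD142+ and ICAM1+ cells and was higher in ICAM1+ than in DPP4+ (1.35 ± 0.18, adjusted p = 7.1e-13) and CD142+ cells (0.89 ± 0.17, adjusted p = 1.19e-05). Epha3, a receptor of ephrins, was highest in CD142+ cells at 1549 normalised counts, against 343 in DPP4+ and 475 in ICAM1+ cells (log2 fold change 2.18 ± 0.18 in CD142+ against DPP4+ cells, adjusted p = 2.39e-31). Wnt5a was lower in ICAM1+ than in DPP4+ (-0.70 ± 0.16, adjusted p = 7.85e-05) and CD142+ cells (-0.98 ± 0.15, adjusted p = 1.78e-08). Of 54 genes in the list of other homeobox genes, 30 were measured, and of 28 tested in ICAM1+ against DPP4+ cells 7 were higher and 5 lower (12.4% and 12.0% of all genes). Hopx, an atypical homeobox gene without DNA binding, was highest in CD142+ cells, with fitted levels of 23.1, 148 and 61.2 normalised counts in DPP4+, CD142+ and ICAM1+ cells. Pax1, a sclerotome gene, was lower in ICAM1+ than in CD142+ cells by -2.18 ± 0.35 (adjusted p = 4.36e-08). Like Pax9, it was counted in this list although it has a paired box and no homeobox. Emx2 (-1.77 ± 0.23 in CD142+ against DPP4+ cells, adjusted p = 9.14e-13) and Lmx1a (-1.46 ± 0.23 in ICAM1+ against DPP4+ cells, adjusted p = 2.95e-09) were higher in DPP4+ cells. Mga, the 1 other T-box gene tested, passed in none.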
